A study of Mus musculus with 7 samples.

Results

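The nuclear genes for the respiratory chain and the ATP synthase were followed in hearts of fasted mice with and without the transcription factor KLF15. The members were all probe sets annotated to exactly 1 gene symbol that begins with Nduf, Sdha, Sdhb, Sdhc, Sdhd, Uqcr, Cox4, Cox5, Cox6, Cox7, Cox8 or Atp5, or that equals Cyc1 or Cycs. The rule used names only and no measured value. It found 164 probe sets of 22626, for 89 genes. Of these genes, 80 encode subunits, 8 encode assembly factors (Ndufaf1, Ndufaf3, Ndufaf4, Ndufaf5, Ndufaf7, Sdhaf1, Sdhaf2 and Sdhaf4) and 1, Cox7a2l, encodes a factor that joins complexes into supercomplexes. The Sdhaf genes entered because their symbols begin with Sdha. The subunit genes comprised 33 of complex I, 4 of complex II, 9 of complex III, cytochrome c (Cycs), 16 of complex IV (Ndufa4 among them, a complex IV subunit despite its name) and 17 of complex V.

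Total RNA of 4 wild-type (WT) and 3 KLF15-null heart samples was hybridised to Affymetrix 3′ arrays, 1 per sample. KLF15 is a Krüppel-like factor that binds DNA through zinc fingers and acts in heart, muscle and liver metabolism. The labels describe the mice of all 7 samples as C57/BL6 males of 3 to 4 months and all had been fasted for 18 h, so no fed heart was measured and every difference given here is between fasted hearts. KLF15 was absent from the whole animal as far as the labels say; how the null allele was made was not stated there. Nothing in the labels says whether arrays of 1 group came from separate animals, and p-values then measure the spread between these samples only.

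Oxidative phosphorylation passes electrons from NADH through complex I, and from succinate through complex II, to ubiquinone, then through complex III and cytochrome c to oxygen at complex IV. The protons pumped on the way drive complex V, the ATP synthase. The heart makes nearly all its ATP this way and burns mainly fatty acids, above all during fasting. In each complex other than complex II, mitochondrial DNA encodes a minority of the subunits and nuclear genes encode the rest. Only nuclear genes are described here. Several complex IV and complex V subunits come in paralogous forms, of which some are typical of heart and skeletal muscle and others of most tissues.

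Signals were on a log2 scale as deposited, and array medians lay between 6.22 and 6.33. The targeted gene matched the labels: its only probe set read 8.68, 8.98, 8.73 and 9.08 in the WT hearts and 6.52, 6.23 and 6.23 in the KLF15-null hearts. The Klf15 signal thus fell by 2.54 on the log2 scale (SE 0.13, limma adjusted p = 1.26e-06; exact two-sided permutation p = 0.0286 over 35 splits). Whether the probes lie within the deleted part was not known, so the fall is a check of the labels only if they do. The sex label was not borne out: the brightest Xist probe set had a mean of 9.54, at percentile 91.4 of all probe sets, and it read at least 8.57 on every array. Probe sets of Usp9y, Uty, Kdm5d and Eif2s3y, which lie on the Y chromosome, were all at or below percentile 27.3. The tissue label was met by cardiomyocyte markers, of which all 14 on the array were above the level used as a filter. Of 7 skeletal muscle genes 3 (Myh1, Myh4 and Tnnt3) were below it and 4 were above it. Of 3 brown fat genes 2 (Ucp1 and Adipoq) were below it and 1 was above it.

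More subunit genes were called higher than lower in KLF15-null hearts on the deposited scale, but that direction depended on how the arrays were scaled. Of the 80 subunit genes, 77 had a probe set with a 7-array mean at or above log2 5.74, the 40th percentile, and each was represented by its brightest such probe set. With limma at a threshold of 0.05, Benjamini-Hochberg adjusted over the 13576 probe sets kept, 35 of the 77 were higher, 7 were lower and 35 were not called. Among all 8404 genes tested, 27.4% were higher and 19.6% lower, 46.9% in either direction. The differences between KLF15-null and WT ranged from -1.56 to 1.18 with a median of 0.25, against a median of 0.02 over all genes tested. When each array was centred on its median, 43 were higher and 4 lower, with a median of 0.34 and a background of 34.0% and 14.6%. Under quantile normalization 21 were higher and 24 lower (median -0.02, background 27.6% and 21.9%), and under cyclic loess normalization 12 were higher and 37 lower (median -0.20, background 26.4% and 23.1%). The median over all kept probe sets moved by less than 0.1 under each of these scalings.

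All 3 KLF15-null values lay above all 4 WT values in 36 of the 77 subunit genes and below them in 8; over all genes tested these shares were 28.4% above and 21.4% below. A whole-heart extract holds several cell types, and fewer cells of a type and less RNA per cell cannot be told apart in it. Not represented among the 77 were Cox4i2, a complex IV subunit form of lung, Cox6b2, a form of testis, and Cox7c, whose 2 single-symbol probe sets read log2 4.98 and 3.67 on average. A further 8 probe sets carried a member's symbol together with another gene's and were left out.

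Cell type markers moved with the groups in part. Beside their counts, the shares over all genes tested were 27.4% higher and 19.6% lower as deposited, and 26.4% and 23.1% after cyclic loess normalization. Of 14 cardiomyocyte markers 2 were higher and 2 lower (median 0.15), with a summed signal of 17.28 to 17.48 in WT and 17.35 to 17.46 in KLF15-null hearts, and after cyclic loess normalization 12 of the 14 were lower (median -0.35). Of 12 macrophage and monocyte markers 6 were higher and 2 lower, with a summed signal of 11.63 to 12.38 in WT and 12.58 to 13.02 in KLF15-null hearts. Of 4 neutrophil markers 2 were higher, and their summed signal was 7.78 to 8.46 in WT and 9.17 to 9.49 in KLF15-null hearts. Endothelial markers had 3 of 8 lower, fibroblast markers 1 higher and 2 lower of 8, and smooth muscle and pericyte markers 1 higher and 1 lower of 6. The part of these cells in the subunit differences was not tested.

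**Figure D1:**
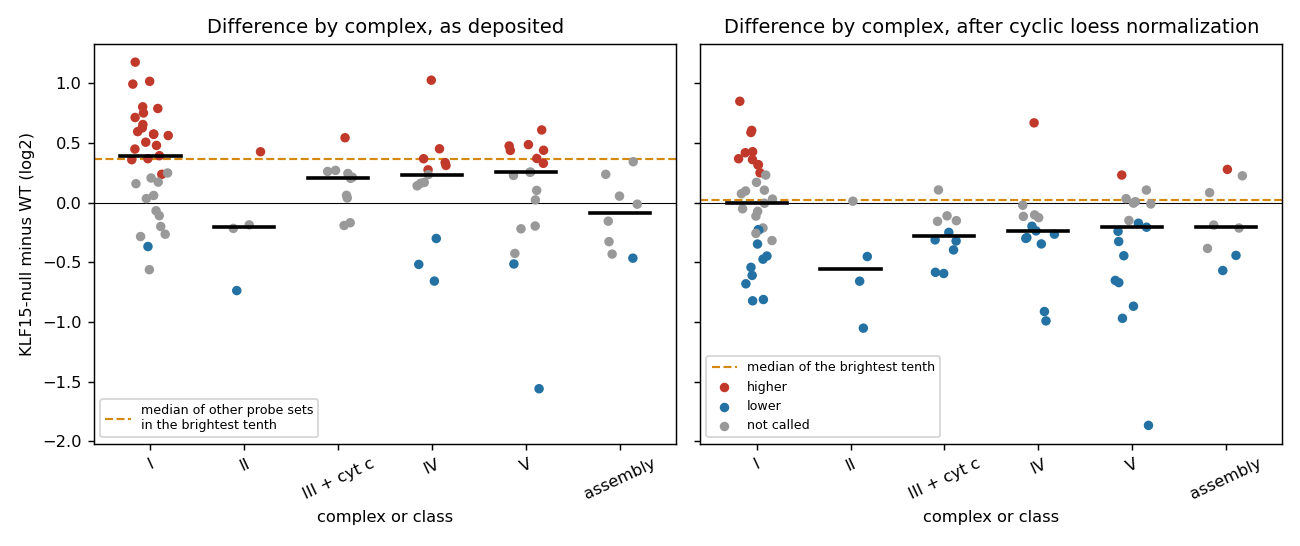
KLF15-null minus WT difference (log2, y axis) of each tested subunit and assembly factor gene, 1 point per gene coloured by its call (key in the right panel), with black bars for medians, grouped by complex or class on the x axis, with values as deposited on the left and after cyclic loess normalization on the right. The dashed line is the median of the other probe sets in the brightest 10% (left) or of all probe sets in it (right). The points of complexes I, III with cytochrome c, IV and V lie mostly above 0 as deposited (medians 0.39, 0.21, 0.23 and 0.25), whereas after cyclic loess normalization 12 of the 77 subunit genes were called higher and 37 lower.

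The subunit transcripts are among the brightest of the heart, and bright probe sets as a whole read higher in the KLF15-null arrays. The 7-array means of the 77 subunit genes ran from log2 7.14 to 13.99 with a median of 12.76, and 75 of them lay in the brightest 10% of kept probe sets (10.06 to 14.10). The 1232 probe sets in that range that belong to no member had a median difference of 0.37, with 52.0% higher and 11.9% lower. The 75 subunit genes there had a median of 0.25, with 34 higher and 6 lower. This comparison sets 1 probe set per gene against probe sets of mixed kinds. Within a kind the medians were closer or farther apart. For probe sets specific to a gene (suffix _at) they were 0.14 over 60 subunit probe sets and 0.13 over others in the brightest 10%. They were 0.39 against 0.36 for those shared by transcripts or genes (_s_at) and 0.37 against 0.44 for those shared by transcripts of a gene (_a_at). For those that may bind unrelated transcripts (_x_at) they were 0.27 against 0.82. The subunit side of these medians was not limited by brightness: of 137 kept subunit probe sets, 123 lay in the brightest 10%. Under cyclic loess normalization 36.6% of the same non-member probe sets were higher and 31.3% lower, and under quantile normalization 35.2% and 32.7%. The median of all probe sets in the brightest 10% was then 0.03 and 0.01. Within the subunit genes the difference followed brightness only weakly (Pearson r = 0.18, Spearman rho = 0.06 across 77 genes that share the same 7 arrays).

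**Figure D2:**
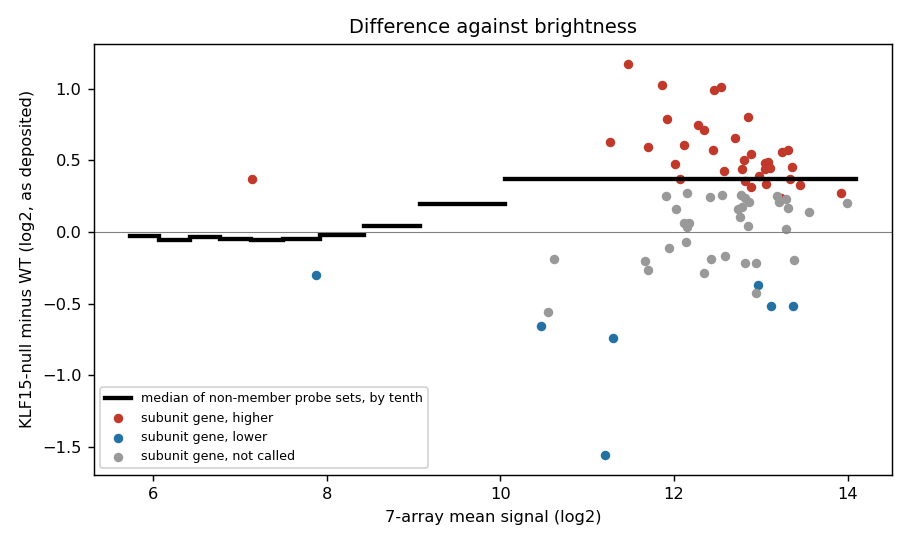
KLF15-null minus WT difference (log2, as deposited, y axis) of each tested subunit gene against its 7-array mean signal (log2, x axis), coloured by call, with black bars for the median of non-member probe sets in each 10% step of brightness. The bar of the brightest step lies at 0.37 and the median of the 75 subunit genes in it at 0.25; after cyclic loess and quantile normalization the medians of the 77 subunit genes were -0.20 and -0.02.

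Array by array, the WT and KLF15-null hearts met at the edge of their ranges on the deposited scale. The median deviation of the 77 subunit genes from their 7-array means was -0.17, -0.14, 0.06 and -0.23 in the WT hearts and 0.18, 0.07 and 0.20 in the KLF15-null hearts. WT replicate 3 stood above the other WT hearts and level with KLF15-null replicate 2. The median over the non-member and member probe sets of the brightest 10% followed the same course, at -0.23, -0.17, 0.02 and -0.21 in WT and 0.26, 0.07 and 0.25 in KLF15-null hearts. After cyclic loess normalization the subunit medians were 0.11, 0.08, 0.03 and 0.05 in WT and -0.11, -0.06 and -0.09 in KLF15-null hearts, with the groups apart in the opposite direction. Without WT replicate 3, 45 subunit genes were higher on the deposited scale.

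**Figure D3:**
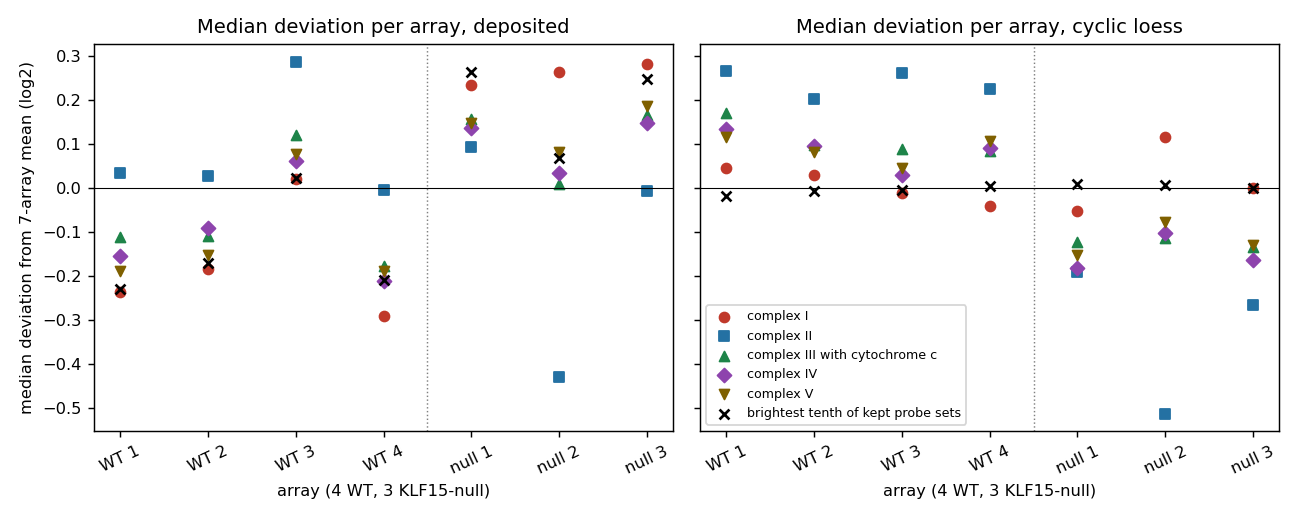
Median deviation from the 7-array mean (log2, y axis) in each of the 4 WT and 3 KLF15-null arrays (x axis), 1 symbol per complex and a cross for the brightest 10% of kept probe sets, as deposited on the left and after cyclic loess normalization on the right. Complex I as deposited lies between -0.29 and 0.02 in WT and between 0.23 and 0.28 in KLF15-null arrays, while after cyclic loess normalization its groups overlap and complexes II to V lie lower in the KLF15-null arrays; complex II drops to -0.43 in KLF15-null replicate 2 as deposited.

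Some subunit genes kept their call whichever scaling was used. Called higher under all 4 scalings were Ndufa2, Ndufa5, Ndufb1, Ndufb3, Ndufb6, Ndufb7, Ndufc2, Ndufs7 and Ndufv2 of complex I, Cox6a1 of complex IV and Atp5e of complex V, 11 in all. Called lower under all 4 were Sdhd of complex II, Cox6a2 and Cox8a of complex IV and Atp5g2 of complex V. Over all 8404 genes 24.0% were higher and 14.6% lower under all 4 scalings, so the subunit genes' 11 and 4 of 77 lie below the background in both directions. That background spans all levels of brightness, whereas 75 of the 77 lie in the brightest 10%. No such share was taken for other bright genes, so a deficit particular to the subunits cannot be read from it. On the deposited scale, 10 of the 11 and all 4 also kept their call with any 1 array left out, the exception being Ndufb1. A second probe set bears on several of them: Ndufv2 and Sdhd each had another probe set called in the opposite direction, and those of Ndufc2, Ndufs7, Ndufb6 and Cox6a1 were not called. Ndufb1 was chosen for mention after its values were seen.

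Complex I, the NADH dehydrogenase, had the most subunits called higher. On the deposited scale 20 of its 33 tested genes were higher and 1, Ndufa3, was lower, with a median of 0.39. Over all genes tested 27.4% were higher and 19.6% lower (median 0.02). Among the non-member probe sets of the brightest 10%, 52.0% were higher and 11.9% lower (median 0.37), so the complex I median was close to that of other bright probe sets. The core subunits, which carry the flavin and the iron-sulfur clusters, had 3 of 6 higher and none lower (median 0.34), and the supernumerary subunits around them 17 of 27 higher and 1 lower (median 0.39). After quantile normalization 14 genes of complex I were higher and 8 lower (median 0.17), beside 27.6% and 21.9% of all genes tested. After cyclic loess normalization 10 were higher and 10 lower (median -0.01), beside 26.4% and 23.1%. The choice of probe set mattered as well. With _at probe sets preferred, 14 of the 33 were higher and 3 lower (median 0.16). The core subunits then turned to 0 higher and 2 lower of 6 (median -0.18). With the mean of each gene's probe sets 1 core subunit was higher (median 0.05), and with _at probe sets alone 7 of 23 complex I genes were higher and 3 lower (median 0.06).

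The gene with the largest difference in the complex was Ndufa2, a supernumerary subunit of the peripheral arm. It read 10.77, 10.98, 11.32 and 10.82 in WT and 12.01, 12.13 and 12.30 in KLF15-null hearts. The groups were well apart, and Ndufa2 rose by 1.18 (SE 0.15, adjusted p = 0.000149), with 0.85 after cyclic loess normalization. Ndufa5, another subunit of the peripheral arm, read 11.96, 12.02, 12.42 and 12.03 in WT and 12.88, 13.28 and 13.20 in KLF15-null hearts. It rose by 1.02 (SE 0.15, adjusted p = 0.000315), and its second probe set was also called higher, by 0.35. Ndufs7, the core subunit with the last iron-sulfur cluster before ubiquinone, read 11.97, 12.00, 12.32 and 11.86 in WT and 12.83, 13.13 and 13.12 in KLF15-null hearts. That probe set rose by 0.99 (SE 0.13, adjusted p = 0.00022), while the _at probe set of Ndufs7 differed by -0.03 and was not called.

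Ndufb7, Ndufb6, Ndufb3 and Ndufc2, further supernumerary subunits, completed the complex I genes with the smallest p. Ndufb7 read between 12.40 and 12.75 in WT and between 13.24 and 13.39 in KLF15-null hearts, a rise of 0.80, and its second probe set rose by 0.52. Ndufb6 rose by 0.79 and Ndufb3 by 0.63, with no overlap between the groups for either. Ndufc2 rose by 0.75 at its brightest probe set, but at its _at probe set it differed by -0.45 and was not called (adjusted p = 0.0951). In the other direction, Ndufa3 read 13.05, 13.20, 13.25 and 13.02 in WT and 12.97, 12.51 and 12.80 in KLF15-null hearts, a fall with a difference of -0.37 (adjusted p = 0.0344). The gap between its groups was narrow, and the call was lost without WT replicates 1, 2 or 3 or KLF15-null replicates 2 or 3 (differences -0.39, -0.34, -0.33, -0.24 and -0.39), with arrays centred on their medians (-0.28) and with the replicate number as a block.

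Complex II, succinate dehydrogenase, is the only complex with every subunit encoded in the nucleus, and its 4 genes did not move together. Sdhd, a membrane anchor, read 11.51, 11.68, 11.89 and 11.39 in WT and 11.20, 10.44 and 11.00 in KLF15-null hearts. The groups did not overlap, and it fell by 0.74 on the log2 scale (SE 0.19, adjusted p = 0.00925). A dimmer Sdhd probe set, of a kind that may bind other transcripts, rose by 0.64. Sdha, the flavoprotein, read 12.38, 12.25, 12.64 and 12.29 in WT and 12.82, 12.84 and 12.80 in KLF15-null hearts, a rise of 0.43 (SE 0.11, adjusted p = 0.0108). Its _at probe set, nearly as bright, differed by -0.32 and was not called (adjusted p = 0.055). With the replicate block the first call was lost as well (adjusted p = 0.0517).

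The other complex II genes were not called at their brightest probe sets. Sdhb, the iron-sulfur subunit, differed by -0.22 (adjusted p = 0.157). Sdhc, the second anchor, differed by -0.19 (adjusted p = 0.403), and by 0.03 without KLF15-null replicate 2, while a dimmer Sdhc probe set fell by 1.33 on the log2 scale, from values between 10.21 and 10.49 in WT to 8.88 to 9.13 in KLF15-null hearts. The median of the 4 genes was -0.20 on the deposited scale, -0.52 after quantile and -0.56 after cyclic loess normalization. Of the 4, 3 were lower under each of these normalizations, beside 21.9% (quantile) and 23.1% (cyclic loess) of all genes tested.

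Complex III passes electrons from ubiquinol to cytochrome c, and 1 of its 9 genes was called on the deposited scale, beside 46.9% of all genes tested. This was Uqcrc2, a core subunit, which read 12.55, 12.64, 12.86 and 12.57 in WT and 13.14, 13.24 and 13.21 in KLF15-null hearts. It rose by 0.54 (SE 0.10, adjusted p = 0.00169), and differed by 0.11 after cyclic loess normalization. A second Uqcrc2 probe set of like brightness differed by 0.11 on the deposited scale and was not called (adjusted p = 0.556). The next genes by p were not called: the hinge subunit gene Uqcrh differed by 0.27 (adjusted p = 0.0566), Uqcrb by 0.20 (adjusted p = 0.0638) and Uqcr11 by 0.26 (adjusted p = 0.109), each negative after cyclic loess normalization. A dimmer _at probe set of Uqcrb was called higher at 0.53 (adjusted p = 0.00646). With _at probe sets preferred 4 of the 10 genes of complex III and cytochrome c were higher, as were 1956 of all 8404 genes. Cycs, cytochrome c itself, differed by 0.21 (adjusted p = 0.133), and a dimmer Cycs probe set was called higher at 0.44. With cytochrome c included, the median was 0.21 as deposited, -0.11 after quantile and -0.28 after cyclic loess normalization. After the latter 6 of the 10 were lower, beside 23.1% of all genes tested. Without WT replicate 3, 6 of the 10 were called higher on the deposited scale, as were 2200 of all 8404 genes.

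Complex IV, cytochrome c oxidase, had 6 of 13 tested genes higher and 3 lower as deposited, with a median of 0.23. Shares over all genes tested were 27.4% higher and 19.6% lower. Of the non-member probe sets of the brightest 10%, 52.0% were higher and 11.9% lower. After cyclic loess normalization 1 was higher and 8 were lower (median -0.24), beside 26.4% and 23.1% of all genes tested. The count of higher genes rested on single arrays: it was 2 without KLF15-null replicate 3, and 3 without KLF15-null replicate 1 or without WT replicate 1, 2 or 4. The 3 lower calls were made with every array left out in turn.

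The paralogues for subunit VIa were called in opposite directions. Cox6a1, the form of subunit VIa found in most tissues, read 11.28, 11.31, 11.66 and 11.43 in WT and 12.27, 12.57 and 12.50 in KLF15-null hearts. It rose by 1.03 (SE 0.13, adjusted p = 0.000136), the smallest p of the complex. A second Cox6a1 probe set differed by 0.29 and was not called (adjusted p = 0.108). Cox6a2, the heart and skeletal muscle form of the same subunit, read 13.58, 13.62, 13.71 and 13.45 in WT and 13.33, 12.84 and 13.05 in KLF15-null hearts. It fell by 0.52 on the log2 scale (SE 0.13, adjusted p = 0.00695). Both calls held under all 4 scalings, with 0.67 for Cox6a1 and -0.99 for Cox6a2 after cyclic loess normalization. The difference between the paralogues was not tested.

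Subunit VIII has 3 forms. Cox8a, the form of most tissues, read 10.68, 10.73, 10.88 and 10.70 in WT and 10.36, 9.74 and 10.18 in KLF15-null hearts. It fell by 0.66 on the log2 scale (SE 0.15, adjusted p = 0.00517), and its second probe set fell by 0.48. Cox8b, the heart and skeletal muscle form, differed by 0.23 (adjusted p = 0.176) with overlapping groups, and by -0.20 after cyclic loess normalization. Cox8c, known from testis, was dim at 7.93 to 8.05 in WT and 7.65 to 7.78 in KLF15-null hearts, a fall with a difference of -0.30 (adjusted p = 0.0174) that was not called when arrays were centred on their medians (-0.21, adjusted p = 0.0755).

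The forms of subunits IV, VIb and VIIa and the associated Ndufa4 had smaller differences. Cox4i1 differed by 0.14 (adjusted p = 0.259) and Ndufa4 by 0.16 (adjusted p = 0.192). Cox6b1 rose by 0.45 (SE 0.10, adjusted p = 0.00478), from values between 13.06 and 13.38 in WT to 13.54 to 13.68. Its _at probe set differed by 0.14 and was not called (adjusted p = 0.267). Cox7a1, the heart and muscle form of subunit VIIa, read 12.66 to 12.93 in WT and 12.92 to 13.17 in KLF15-null hearts, so that the groups overlapped, and was called higher at 0.31 (adjusted p = 0.0364). Cox7a2, the form of most tissues, rose by 0.37 (adjusted p = 0.0116), and its _at probe set differed by 0.16 and was not called. These 5 genes were all negative after cyclic loess normalization, and the Cox7a1 call was lost without WT replicate 1, 2 or 4 or KLF15-null replicate 1 or 3 (differences 0.26 to 0.31) and the Cox7a2 call without KLF15-null replicate 3 (0.35).

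**Figure D4:**
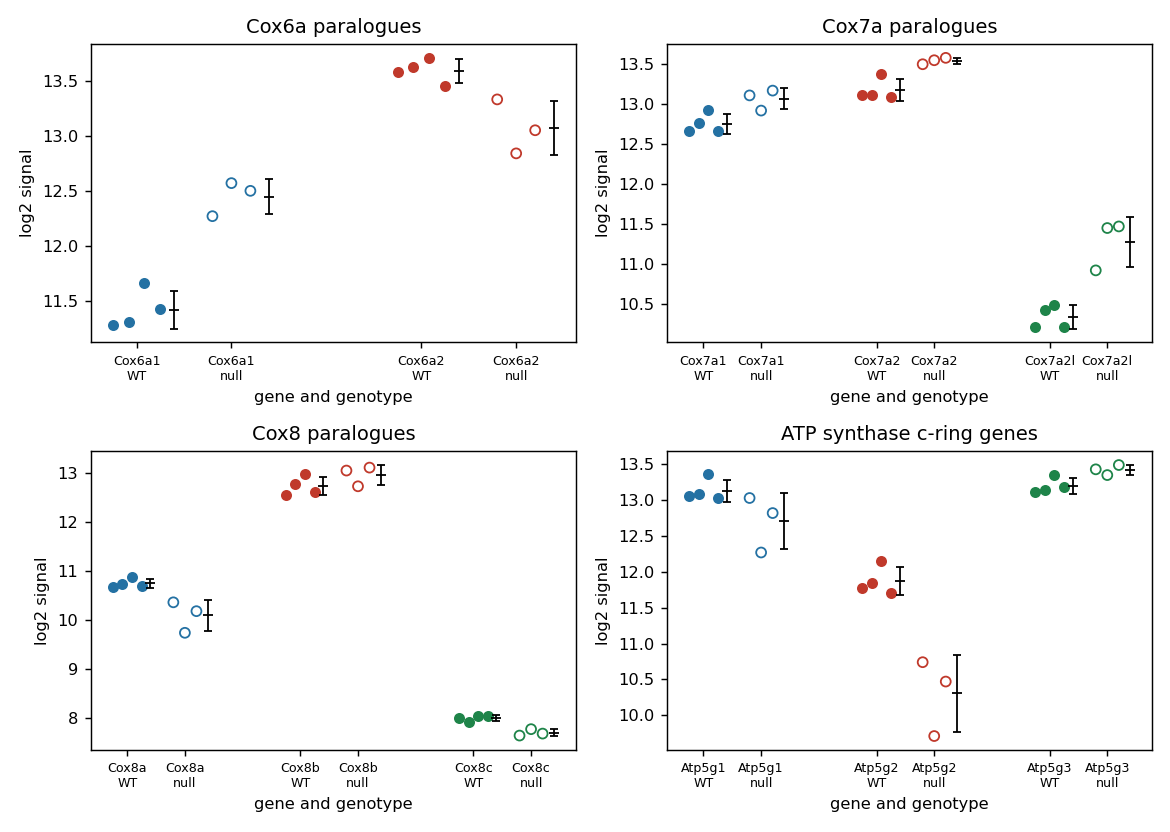
Log2 signal (y axis) in each WT (filled points, n = 4) and KLF15-null array (open points, n = 3) with the group mean and SD (bars) for paralogous genes of complex IV and of the complex V c ring, by gene and genotype on the x axis, as deposited. The KLF15-null points lie above all WT points for Cox6a1 (12.27 to 12.57 against 11.28 to 11.66), Cox7a2 and Cox7a2l and below them for Cox6a2, Cox8a, Cox8c and Atp5g2. Cyclic loess normalization kept the direction for each of these genes except Cox7a2, which turned to -0.10. Levels of different probe sets are not comparable.

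Complex V, the ATP synthase, held the member with the largest difference. Of 17 tested genes 7 were higher and 2 lower as deposited (median 0.25, or 0.14 with _at probe sets preferred). After quantile normalization 3 were higher and 7 lower (median -0.02), and after cyclic loess normalization 1 was higher and 10 lower (median -0.21). Shares as deposited were 27.4% higher and 19.6% lower over all genes tested, and 52.0% and 11.9% over the non-member probe sets of the brightest 10%. Over all genes tested they were 27.6% and 21.9% after quantile and 26.4% and 23.1% after cyclic loess normalization. The genes Atp5g1, Atp5g2 and Atp5g3 encode the same mature c subunit, the ring of the membrane rotor, with different import sequences. Atp5g2 read 11.77, 11.85, 12.15 and 11.71 in WT and 10.74, 9.71 and 10.47 in KLF15-null hearts. It fell by 1.56 on the log2 scale (SE 0.22, adjusted p = 0.000329), with -1.87 after cyclic loess normalization. Atp5g1 read 13.06, 13.08, 13.36 and 13.03 in WT and 13.03, 12.27 and 12.82 in KLF15-null hearts, a difference of -0.43 that was not called (adjusted p = 0.065) and passed without KLF15-null replicate 1 (-0.59, adjusted p = 0.0225). Atp5g3 differed by 0.23 (adjusted p = 0.0715), called higher without WT replicate 3 (0.28) and at -0.24 after cyclic loess normalization.

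The other parts of the synthase had smaller differences. In the catalytic F1 head, Atp5e rose by 0.61 (SE 0.13, adjusted p = 0.00401), from 11.65 to 12.13 in WT to 12.33 to 12.62, and Atp5d rose by 0.49 (adjusted p = 0.00482), while a second Atp5d probe set differed by -0.09 and was not called. Atp5a1, the alpha subunit, fell with a difference of -0.51 at its brightest probe set (adjusted p = 0.0325). A nearly equally bright Atp5a1 probe set rose by 0.39 (adjusted p = 0.00744), and the fall was not called in 6 of the 7 fits that left 1 array out, all but that without KLF15-null replicate 1, nor with arrays centred on their medians (-0.42). In the peripheral stalk Atp5pb rose by 0.44 (adjusted p = 0.0103), a call lost without KLF15-null replicate 3 (0.40). Its _at probe set differed by 0.02 and was not called (adjusted p = 0.919). Among the small membrane subunits Atp5k rose by 0.44 (adjusted p = 0.00784) and Atp5mpl by 0.47 (adjusted p = 0.00829), with -0.01 and 0.11 after cyclic loess normalization. The number of complex V genes called higher was 10 without WT replicate 3 and 4 without KLF15-null replicate 3, and 1 was called lower when any WT array or KLF15-null replicate 2 or 3 was left out.

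Assembly factors help build the complexes and are not part of them. Among the 8 found by the rule none was higher and 1 was lower, with a median of -0.08, beside 27.4% higher and 19.6% lower over all genes tested. Sdhaf2, which attaches the flavin to Sdha, read 9.04, 9.08, 9.11 and 9.01 in WT and 8.63, 8.52 and 8.64 in KLF15-null hearts. It fell by 0.47 on the log2 scale (SE 0.09, adjusted p = 0.00255), while a second, dimmer Sdhaf2 probe set differed by 0.13 and was not called (adjusted p = 0.277). Ndufaf4 differed by 0.34 (adjusted p = 0.0526; 0.20 at a second probe set), Ndufaf5 by 0.24 (adjusted p = 0.0554) and Ndufaf7 by -0.43 (adjusted p = 0.0955). Each of these 3 passed when 1 array was left out, Ndufaf4 and Ndufaf7 without KLF15-null replicate 1 (0.44 and -0.62) and Ndufaf5 without KLF15-null replicate 2 (0.31). The assembly factors were dimmer than the subunits, with 7-array means below log2 10. Their median was 0.01 when arrays were centred and 0.02 without KLF15-null replicate 2.

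Cox7a2l, the supercomplex factor, read 10.21, 10.43, 10.49 and 10.21 in WT and 10.92, 11.45 and 11.47 in KLF15-null hearts. It rose by 0.94 (SE 0.16, adjusted p = 0.000769), with 0.67 after cyclic loess normalization. Of its other probe sets 1 rose by 0.46 and 1 differed by 0.29 without being called.

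Probe sets of the same gene often gave different values, in 1 direction more often than the other. On these arrays a suffix _at marks probes specific to a gene and _a_at probes shared by transcripts of the gene. Both of these kinds are thus specific to their gene. The suffix _s_at marks probes shared by several transcripts or genes, and _x_at probes that may bind unrelated transcripts. Of the 31 subunit genes with a kept _at and another kind of probe set, the other kind was the more positive in 27. The median difference was 0.14 at the _at probe sets, with 9 higher and 6 lower, and 0.44 at the others, with 22 higher and 2 lower. Set against its mean in WT, the gap between the kinds was -0.04, -0.04, 0.01 and 0.04 in the WT hearts and 0.17, 0.59 and 0.36 in the KLF15-null hearts. Among 1411 genes that are no member the other kind was more positive in 67.0%, and in 85.3% of the 75 with both probe sets in the brightest 10%. In the 1411, 281 were higher and 410 lower at the _at probe sets, and 656 and 304 at the others. In the 75 these counts were 19 and 15 at the _at probe sets, and 56 and 5 at the others. The median gap was 0.31 in the subunit genes, 0.37 in the 1411 and 0.79 in the 75. Represented by _at probe sets alone, 15 of 56 subunit genes were higher and 9 lower (background 21.4% and 22.0% of genes), with a median of 0.14. Represented by the other kinds alone, 34 of 52 were higher and 2 lower (background 38.0% and 19.7%), with a median of 0.43.

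Over all 137 kept subunit probe sets 60 were higher and 14 lower, beside 26.8% and 23.8% of all kept probe sets. Of the 41 subunit genes with several kept probe sets, every probe set was higher in 5 (Atp5k, Cox5a, Ndufa5, Ndufb7 and Ndufc1) and every one was lower in 2 (Cox8a and Ndufa3). Opposite calls were found in 4: Atp5a1, Ndufs4, Ndufv2 and Sdhd. Between the brightest _at and the brightest other probe set they occurred in 3 of the 31 subunit genes (9.68%), beside 15.2% of the 1411 other genes and 12% of the 75 bright ones. In Ndufv2, a core subunit, the 2 brightest probe sets had 7-array means of 12.34 and 12.32 and differences of 0.71 and -0.84. In Ndufs4, a supernumerary subunit whose loss causes a severe complex I deficiency, the brightest probe set differed by -0.56 and was not called (adjusted p = 0.0766), passing without KLF15-null replicate 1 (-0.79). Its dimmer probe sets rose by 1.49 and fell by 0.67 on the log2 scale.

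**Figure D5:**
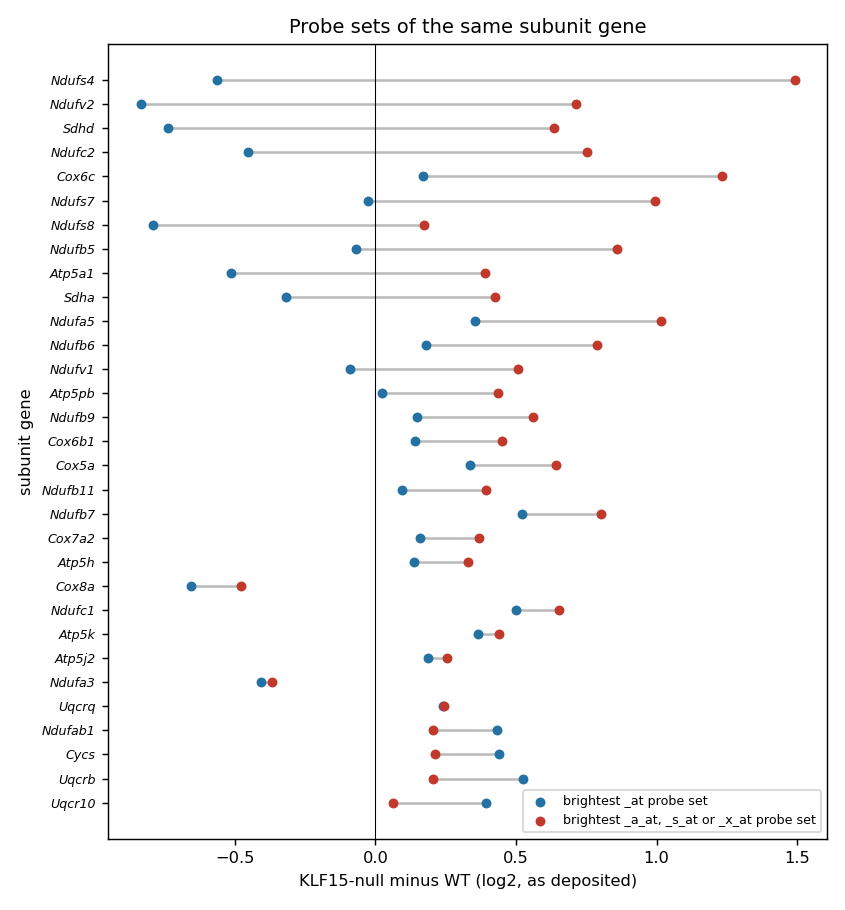
KLF15-null minus WT difference (log2, as deposited, x axis) of the brightest _at probe set and the brightest probe set of another kind for each of 31 subunit genes (y axis), joined by a line. The other kind lies to the right in 27 of 31 genes, and the medians are 0.14 and 0.44. Of 75 bright genes that are no member, the other kind was the more positive in 85.3%.

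Promoter sequences are shown for 5 genes that kept their call under all 4 scalings and were higher (Cox6a1 and Ndufa5) or lower (Sdhd, Cox8a and Atp5g2). Each window runs from 250 bases before to 50 bases after the gene's start in RefSeq (GRCm38.p6), 5′ to 3′ along the gene's strand, and Ndufa5 has 2 windows, of which the first is given. Capitals mark matches on either strand to GCGCNTGCG for NRF1 and CCGGAAG for GABPA, both activators of respiratory genes, to AAGGTCA for the estrogen-related receptors, to CCCGCCC for the GC box bound by Sp and KLF factors, and to CACACCC for the CACCC box of KLF factors.
Cox6a1, chr5:115348909-115349208, minus strand: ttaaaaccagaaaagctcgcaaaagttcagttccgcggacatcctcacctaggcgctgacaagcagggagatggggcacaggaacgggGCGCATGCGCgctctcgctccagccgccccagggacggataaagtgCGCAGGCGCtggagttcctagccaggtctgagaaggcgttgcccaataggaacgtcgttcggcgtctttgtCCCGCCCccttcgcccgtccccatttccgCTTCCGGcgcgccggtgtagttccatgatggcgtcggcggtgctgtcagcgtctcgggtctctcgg
Ndufa5, chr6:24527477-24527776, minus strand: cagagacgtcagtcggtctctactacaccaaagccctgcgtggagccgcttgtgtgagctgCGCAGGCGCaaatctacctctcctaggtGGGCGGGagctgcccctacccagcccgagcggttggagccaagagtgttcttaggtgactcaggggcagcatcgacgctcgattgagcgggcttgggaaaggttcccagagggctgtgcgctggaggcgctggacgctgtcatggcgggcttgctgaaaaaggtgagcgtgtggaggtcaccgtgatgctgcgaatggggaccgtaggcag
Sdhd, chr9:50603800-50604099, minus strand: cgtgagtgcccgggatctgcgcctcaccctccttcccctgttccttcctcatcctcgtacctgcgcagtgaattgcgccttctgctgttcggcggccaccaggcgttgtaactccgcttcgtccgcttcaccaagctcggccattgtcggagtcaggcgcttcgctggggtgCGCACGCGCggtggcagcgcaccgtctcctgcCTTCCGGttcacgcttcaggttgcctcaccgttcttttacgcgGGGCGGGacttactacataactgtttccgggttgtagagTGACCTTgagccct
Cox8a, chr19:7217567-7217866, minus strand: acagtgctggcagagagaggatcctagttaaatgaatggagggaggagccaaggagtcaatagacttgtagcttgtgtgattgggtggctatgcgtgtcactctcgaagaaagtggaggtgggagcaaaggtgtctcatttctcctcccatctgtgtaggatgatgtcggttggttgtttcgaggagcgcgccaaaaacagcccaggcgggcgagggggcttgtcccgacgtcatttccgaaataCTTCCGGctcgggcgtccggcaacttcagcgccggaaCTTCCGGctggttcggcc
Atp5g2, chr15:102670998-102671297, minus strand: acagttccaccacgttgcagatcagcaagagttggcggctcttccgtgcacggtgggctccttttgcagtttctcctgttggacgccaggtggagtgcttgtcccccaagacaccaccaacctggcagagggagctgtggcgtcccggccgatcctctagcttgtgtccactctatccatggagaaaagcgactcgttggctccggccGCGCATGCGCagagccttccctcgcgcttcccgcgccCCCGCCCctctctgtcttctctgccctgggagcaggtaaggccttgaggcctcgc
The NRF1 letters stand in the windows of Cox6a1, Ndufa5, Sdhd and Atp5g2, and none stand in that of Cox8a, which has the GABPA letters at 2 places. The GC box letters are in all but Cox8a, and the CACCC box letters are in none of the 5. Both higher and lower genes thus carried the NRF1 and the GC box letters.

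Windows were found for 63 of the 77 tested subunit genes and 9887 genes on the array. The NRF1 letters were in any window, on either strand, of 34.9% of these subunit genes against 12.6% of those on the array. The shares below are likewise of genes, so a gene with several windows had more places for a match. Of genes with a window, the NRF1 letters were found for 9 of 15 of complex V (60%), 6 of 30 of complex I (20%) and 1 of 9 of complex IV (11.1%). The GABPA letters were in 27.0% against 16.3%, and the estrogen-related receptor letters in 11.1% against 4.36%. Both kinds of KLF letters were less frequent than on the array, the GC box in 31.7% against 46.3% and the CACCC box in 4.76% against 10.4%. Of 31 higher subunit genes with a window 32.3% had the NRF1 letters, and of 4 lower ones 50%. For the GC box these shares were 35.5% and 75%, and for the CACCC box 3.23% and 0%.

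Genes that serve the chain from outside its subunits gave a mixed picture. For these lists and those of the next paragraph, the shares over all genes tested were 27.4% higher and 19.6% lower as deposited. They were 27.6% and 21.9% after quantile and 26.4% and 23.1% after cyclic loess normalization. Of 33 assembly factors outside the rule 14 were higher and 4 lower (median 0.24), and 12 and 6 after cyclic loess normalization. The smallest p-values belonged to Cox17, the copper chaperone of complex IV, which rose by 1.49 (adjusted p = 3.20e-05), Higd1a, which rose by 1.27, and Cox20, which rose by 0.80. Of 15 regulators of respiratory genes 4 were higher and 7 lower (median -0.31). On the log2 scale Ppargc1a, a coactivator of mitochondrial biogenesis, fell by 1.80, Ppara, a fatty acid sensor, fell by 2.13 and Tfb2m, a mitochondrial transcription factor, fell by 1.22.

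Of 15 genes for ubiquinone synthesis and its electron donors 3 were higher and 2 lower (median -0.10), and none higher and 6 lower after quantile or cyclic loess normalization. Coq5 and Coq7, enzymes of ubiquinone synthesis, each rose by 0.48, and Etfdh, which brings electrons from fatty acid oxidation, fell by 0.63 on the log2 scale. Of 8 genes for ATP export 2 were higher and none lower (median 0.21), Slc25a5 at 0.61 and Ckmt2 at 0.36, against none higher and 2 lower after quantile and 1 higher and 5 lower after cyclic loess normalization. Of 8 genes taken for mitochondrial mass 4 were higher and 1 lower (median 0.23), with Tomm20, an import receptor, at 0.94, Phb2 at 0.51 and citrate synthase (Cs) at 0.44, against 1 higher and 4 lower after quantile and 1 higher and 3 lower after cyclic loess normalization.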

How the data were processed

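Total RNA of 4 WT and 3 KLF15-null heart samples was hybridised to Affymetrix 3′ arrays. The authors deposited 1 value per probe set and array on a log2 scale, as the range of the values shows. GCOS was used, per the submitters' processing notes; its role and version, and how signals were summarized, normalized or filtered, are not stated in the sources used here. The number of arrays limits the precision. Array medians lay within 0.15 of each other, so the deposited values were compared with no further scaling.

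Probe sets with a 7-array mean at or above the 40th percentile were kept, and a gene was represented by its brightest kept probe set with 1 symbol. The groups were fitted in R 4.3.3 with limma 3.58.1 (linear model, empirical Bayes with an intensity trend, two-sided, Benjamini-Hochberg over 13576 probe sets, threshold 0.05). All adjusted p-values are from this fit or, where an alternative is named, from that one. "Called", "rose" and "fell" mean an adjusted p under the threshold. The procedure was tested on simulated data. Lists and complexes are described by counts and medians, with no test. Symbols came from the platform annotation and matched RefSeq by Entrez number.

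Members and lists were chosen with earlier results of these data known. Genes were named by smallest p (7 of complex I, all 4 of complex II, 4 of complex III with cytochrome c, 5 of complex IV, 6 of complex V, 4 assembly factors, up to 3 per related list), as paralogues, as subunits called lower, or for opposite probe sets; others were chosen after their values were seen. Deviations of arrays with the same replicate number correlated at -0.11, 0.00 and 0.19. Whether arrays of the same number belong together cannot be told from these values, and the main fit did not pair them. Other settings tried were 3 further scalings, filters, probe set choices, no trend, array weights, a replicate block, each array left out and, chosen after seeing the data, probe sets of 1 suffix kind. Protein sequences were not used here.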

Additional observations from a re-analysis of the deposited data

Results flagged for a closer look

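In 8 of the 49 groups of 4 WT values examined, 1 heart stood apart from the other three by Dixon's ratio, where chance gives about 1 in 20. In 7 of the 8 it was WT replicate 3, as the highest. It read 13.36 for Atp5g1, 12.06 for Atp5mpl, 13.38 for Cox7a2, 12.42 for Ndufa5 and 11.05 for Ndufs4. Its median deviation from the 7-array means was 0.29 for complex II and 0.08 for complex V. In the remaining case WT replicate 4 read 7.60 for the assembly factor Ndufaf7, against 7.36 in the other WT hearts. These values come from the same arrays and are not independent of each other. The KLF15-null values were not among the groups examined, and those arrays were less alike. Correlations between arrays were 0.986 to 0.993 within KLF15-null and 0.995 to 0.997 within WT. Uqcrc1 read 12.75, 11.57 and 12.63 in the KLF15-null hearts. Every subunit called lower except Cox8c read lowest in KLF15-null replicate 2.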

How the results depend on the processing

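Scaling changed the results most. The subunit genes gave 35 higher and 7 lower as deposited, 4 lower with arrays centred on their medians, 21 higher and 24 lower with a median of -0.022 under quantile, and 12 higher and 37 lower with a median of -0.20 under cyclic loess normalization. Their probe sets gave 8 lower when centred, 36 higher and 47 lower under quantile, and 22 higher and 63 lower under cyclic loess normalization. Array weights gave 49 higher and 11 lower subunit genes, and 3013 higher and 2165 lower of all 8404 genes. Only _at probe sets gave 15 higher genes, and only the other kinds 2 lower with a median of 0.43.

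Among the 8 assembly factors, centring gave 2 higher and a median of 0.0073, quantile normalization 1 higher and 3 lower, cyclic loess normalization 1 higher and 2 lower, array weights 2 higher and a median of 0.054, and averaging a gene's probe sets 1 higher and 0 lower. A filter at the 60th percentile or no intensity trend gave 1 higher, and only the other kinds of probe set gave 0 lower.

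The medians of complex III with cytochrome c (-0.11) and complex V (-0.022) turned under quantile normalization, and those of complexes I (-0.0058), III with cytochrome c (-0.28), IV (-0.24) and V (-0.21) under cyclic loess normalization. That of complex II became 0.43 with only the other kinds of probe set. Of the 42 genes named by rule, under quantile normalization Atp5g3 (-0.0043), Cox8b (-0.081), Ndufa4 (-0.15), Uqcr11 (-0.071) and Uqcrh (-0.11) turned; over all 77 subunit genes the number with a positive difference went from 57 to 35, and to 23 under cyclic loess normalization. Of the 42, under cyclic loess normalization Atp5g3 (-0.24), Atp5k (-0.011), Cox4i1 (-0.35), Cox6b1 (-0.022), Cox7a1 (-0.13), Cox7a2 (-0.10), Cox8b (-0.20), Ndufa4 (-0.26), Uqcr11 (-0.15), Uqcrb (-0.31) and Uqcrh (-0.11) turned. The choice of probe set turned Atp5a1 (0.29 for their mean, 0.39 for the other kinds), Ndufs4 (0.086 and 1.49, likewise) and Sdhd (0.64 for the other kinds). With _at probe sets preferred Ndufc2 (-0.45), Ndufs7 (-0.026), Ndufv2 (-0.84) and Sdha (-0.32) turned, the last 2 also for the probe set brightest in WT.

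With 1 array left out, 25 to 45 subunit genes were higher and 5 to 9 lower, with medians of 0.21 to 0.32. Of the assembly factors 0 to 1 were higher and 1 to 2 lower, with medians of -0.17 to 0.023. Sdhc became 0.030 without KLF15-null replicate 2. With the replicate number as a block, 26 subunit genes were higher and 5 lower (median 0.21), the assembly factor median was -0.13, and of the 42 named genes Cox7a1, Cox8c, Ndufa3 and Sdha lost their calls. The causes were not tested.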
